A study of Mus musculus with 6 samples.

Results

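Integrins are cell surface receptors built from an alpha and a beta subunit that hold cells to matrix and to other cells. They switch to a high-affinity state when talin and a kindlin bind the tail of the beta subunit inside the cell, and the complex of integrin-linked kinase (ILK), PINCH and a parvin then ties the receptor to actin. In marrow, integrins anchor haematopoietic stem and progenitor cells to stroma and bone, let osteoclasts seal onto the bone they resorb, and drive platelet aggregation and leukocyte adhesion. The genes were chosen by symbol: every integrin alpha and beta subunit, with integrin-binding proteins left out, together with both talins, the 3 kindlins, Ilk, Lims1 (PINCH) and the 3 parvins. Of 37 such symbols, 34 genes had at least 1 probe set that named no other gene, for 82 of 34945 such probe sets and 34 of 18193 genes on the array. Itga11, Itgad and Fermt1 were not analysed here.

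RNA came from femurs of 3 male C57BL/6 mice, 8 weeks old and injected intraperitoneally with saline. Endosteal RNA (3 arrays, A, B and C) is what Trizol, a lysing reagent, took up from the shaft after its marrow had been flushed out. Central RNA (3 arrays, A, B and C) came from the flushed cells, which were spun down before lysis. Muscle and periosteum had been scraped off and the bone ends removed, and neither fraction was sorted, so each is a mixture of cells.

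The labelled sources held the markers of bone and of muscle in different amounts. Of 7 osteoblast and bone matrix markers, 6 were called higher in endosteal RNA, and their summed signal was 63494 to 78477 on endosteal arrays, against 1573 to 2077 on central arrays. All 12 skeletal muscle markers were called higher too, with sums of 81383 to 158179 on endosteal and 865 to 1322 on central arrays. Endosteal array A had the highest muscle sum and the highest bone sum. With the array letter as a replicate block, limma called 11 muscle, 3 bone and 2 of 8 osteoclast markers higher, and 0 of every other marker list named below, where 8 of 8 megakaryocyte, 10 of 10 endothelial and 4 of 8 pericyte markers were higher at an unadjusted p below 0.05. Median signal over all probe sets was 119.58 to 130.96 on endosteal and 97.2 to 106 on central arrays. Fewer cells of a type and less RNA per cell cannot be told apart in such bulk samples.

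**Figure D1:**
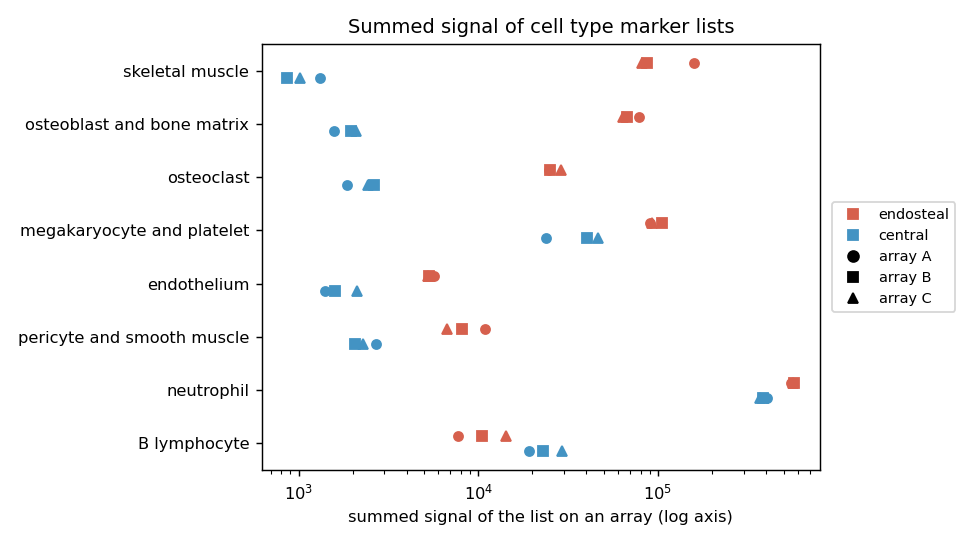
Summed signal of 8 cell type marker lists on each array, on a log axis, with endosteal arrays in red above central arrays in blue and the letter given by the symbol. Endosteal sums lie above central sums for every list drawn except B lymphocyte genes, and the gap is widest for skeletal muscle.

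The comparison asked which integrin genes differ between endosteal RNA and central RNA, each a mixture as described above. Signals are linear probe set intensities, and where 3 are given for a region they follow the order A, B, C. Log2 changes are endosteal minus central on the log2(signal + 16) scale, which understates changes of dim genes. Each gene is given by its brightest probe set. A gene is called when the limma fit over all 18193 genes gave an adjusted p below 0.05, and every adjusted p below is from that fit unless another is named. The study used individual mice, but no label ties a letter to 1 mouse across regions, and p-values measure only the spread between these arrays.

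Integrin genes moved in both directions. In endosteal RNA, 7 of the 34 genes were called higher (20.6%, against 7.74% of all genes) and 3 were called lower (8.82%, against 3.97% of all genes). Called higher were the subunit genes Itgav, Itgb1, Itgb5 and Itgb8 and the activator genes Tln2, Fermt2 and Parva, while Itga4, Itgal and Itgb2l were called lower. When each array was centred on its median, which moved the median change of all genes by -0.26, the members split into 7 higher and 6 lower, while all genes split into 927 higher (5.1%) and 1778 lower (9.77%). Endosteal arrays lay wholly above central arrays for 15 members (44.1%, against 22.1% of all genes) and wholly below for 8 (23.5%, against 15.4%). Fitted singly, 15 of the 82 member probe sets were called higher and 2 lower, against 4.63% and 2.08% of all probe sets. With the mean of all probe sets of a gene, 1 of the 34 was called lower, against 2.73% of all genes. Under these fits the lower calls of members were thus close to the share of the whole array. The median change of the members was 0.47, beside 0.10 for all genes. Of the 34 changes, 21 were positive and 13 negative, or 20 and 14 after quantile normalisation and 19 and 15 after centring.

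These calls depended on how the array letters entered the fit. With the array letter, which recurs in each region, as a replicate block, limma called 0 members higher and 0 lower. Of all genes, 85 were then called higher (0.467%) and 0 lower. The 10 called genes then had adjusted p between 0.0535 and 0.0982. In that fit 14 members were higher and 7 lower at an unadjusted p below 0.05. The share of all genes at that unadjusted p is not given. Such counts, here and for other lists, therefore cannot be read as an excess. With the letter as a random block, 7 members were called higher and 4 lower, against 9.17% and 5.17% of all genes. When 1 array was left out at a time, Itgav, Tln2 and Fermt2 kept their calls in all 6 fits.

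**Figure D2:**
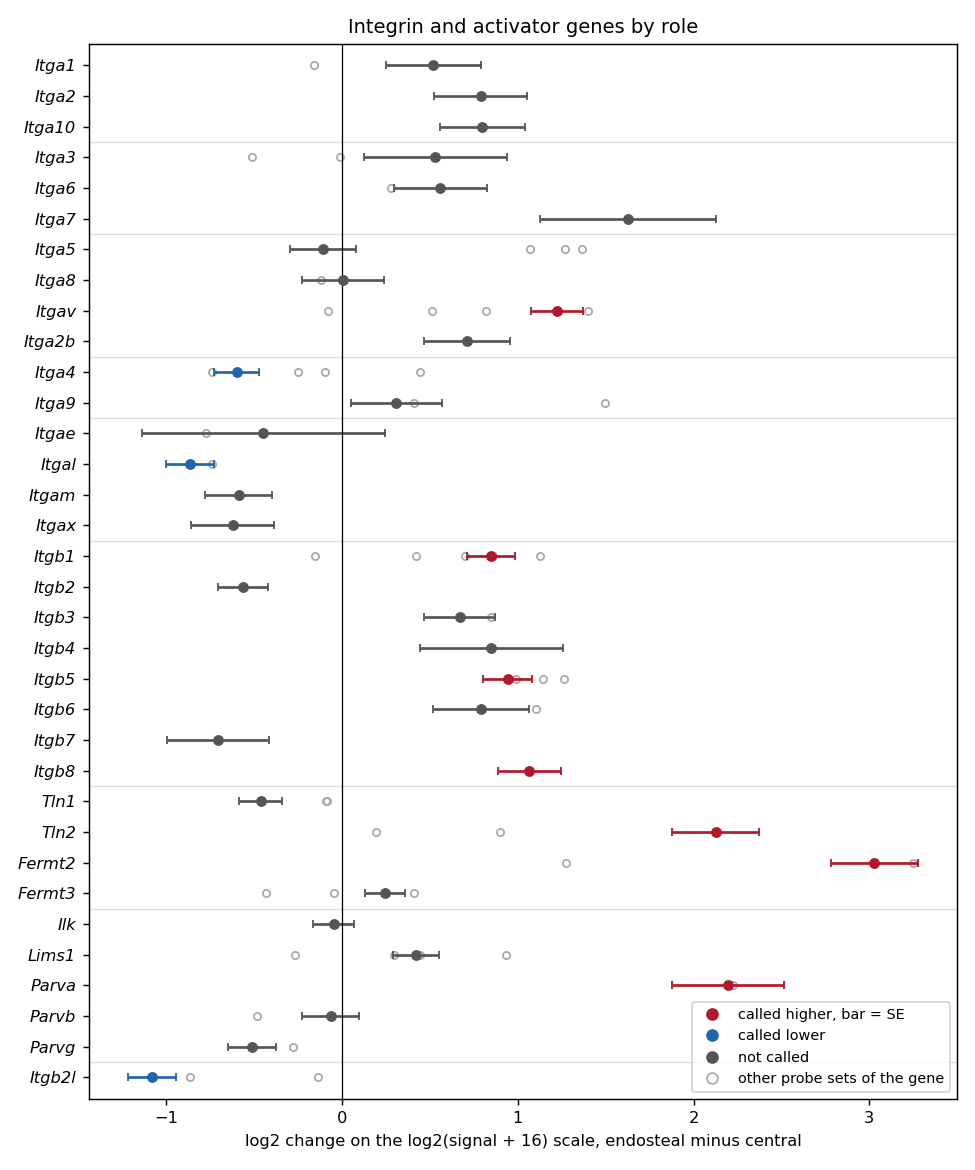
Log2 change, endosteal minus central, of each of the 34 genes grouped by role, with bars for the standard error. Filled points show the probe set that represents the gene, in red where called higher and in blue where called lower, and open grey circles show its other probe sets. Fermt2, Parva and Tln2 lie farthest to the right and Itgb2l farthest to the left.

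Of the 9 talin, kindlin and ILK complex genes measured, 3 were called higher in endosteal RNA and 0 lower. These are 33.3% and 0%, against 7.74% and 3.97% of all genes. At an unadjusted p below 0.05 in limma, Lims1 was also higher, and 1 talin and 1 parvin gene were lower. Fermt2 encodes kindlin-2, the kindlin of non-blood cells, which binds beta subunit tails and helps talin to activate them. Its signals were 972.5, 820.9 and 621 on endosteal arrays, against 65.1, 77.9 and 111 on central arrays. The lowest endosteal value was above the highest central value, and the change of 3.03 (SE 0.25, adjusted p = 0.00425), or 8.16-fold on that scale, was the largest of the 34 genes. A second probe set gave 312, 296 and 205 on endosteal arrays, against 28.6, 12.3 and 4.94 on central arrays, and was also called higher when every probe set was fitted on its own. Another, with a change of 1.28, was not called there. Fermt3, which encodes kindlin-3 of blood cells, had 19860 ± 984 on endosteal and 16734 ± 495 on central arrays (SD, n = 3 each), with a change of 0.25 that did not pass (adjusted p = 0.230). Its sign turned after centring, to -0.02, and its 4 probe sets ran from -0.43 to 0.41.

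The promoter of Fermt2 is shown because this gene had the largest change. RefSeq lists it on the minus strand of GRCm38.p6 at chr14:45530066-45530315, as the 250 bases before 1 of the gene's starts. RefSeq's span of the gene reaches into this window, so a longer transcript begins upstream of that start. Capitals mark a match to the CArG box, the motif of serum response factor, a regulator of actin and muscle genes.
Fermt2: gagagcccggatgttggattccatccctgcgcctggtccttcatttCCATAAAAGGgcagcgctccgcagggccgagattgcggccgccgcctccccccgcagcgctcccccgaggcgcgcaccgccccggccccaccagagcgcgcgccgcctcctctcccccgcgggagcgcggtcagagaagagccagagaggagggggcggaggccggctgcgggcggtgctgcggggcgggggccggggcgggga
The match begins 204 bases before the start. Searched on both strands, the CArG box was found in 1.47% of 32851 such windows of all genes. Of 25 members with a window, 2 had a match, namely 1 of 5 called higher, 0 of 2 called lower and 1 of 18 not called. Ilk, Itga3, Itgb6, Lims1 and Parvg have more than 1 window and count once if any matches. Counts of members therefore cannot be set directly against the share of windows. A match in letters is no evidence that a factor binds there.

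Of the talin genes, Tln2 was called and Tln1 was not. Tln2 encodes talin-2, abundant in muscle, heart and brain. Its signals were 227, 159 and 150 on endosteal arrays, against 32.1, 37.1 and 17.2 on central arrays. The groups did not overlap, and the change was 2.13 (SE 0.25, adjusted p = 0.0101). A second Tln2 probe set was called higher on its own and the last was not, at signals below 17 on every array. Tln1, the talin of blood cells and most other tissues, had 6184, 6234 and 6181 on endosteal arrays, against 9330, 8057 and 8289 on central arrays. All endosteal values were below all central ones, but the change of -0.46 (SE 0.12) did not pass (adjusted p = 0.0658). It passed with pseudocount 64, with an intensity trend, after centring and among genes above the median level, at adjusted p between 0.00337 and 0.0407.

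Of the parvins, which link ILK to actin, Parva was called higher and the other two were not called. Parva, the widely expressed alpha-parvin, had 264, 213 and 178 on endosteal arrays, against 32.1, 19.1 and 60.5 on central arrays. The change of 2.20 (SE 0.32, adjusted p = 0.0162) was matched by a second probe set at 91.3, 77.1 and 70.5 on endosteal arrays, against 2.49, 6.46 and 4.37 on central arrays. Without endosteal array A, endosteal array B or central array A, Parva did not pass (adjusted p = 0.0522 to 0.0637). Parvb had 2107 ± 224 on endosteal and 2206 ± 294 on central arrays (SD, n = 3 each), with overlapping groups and a change of -0.06. Parvg, the gamma-parvin of blood cells, had 2334, 2227 and 2288 on endosteal arrays, against 3665, 3222 and 2927 on central arrays. Its groups did not overlap, and its change of -0.51 (SE 0.13) missed the threshold (adjusted p = 0.0663), while it passed under the same 4 alternatives as Tln1 (0.00425 to 0.0411).

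Neither Ilk nor Lims1 was called. Ilk, the scaffold of the complex, had 3994 ± 249 on endosteal and 4115 ± 86.3 on central arrays (SD, n = 3 each), with a change of -0.04 (SE 0.12, adjusted p = 0.837). Lims1, the adaptor PINCH-1, had 6165 ± 578 on endosteal and 4587 ± 228 on central arrays, with a change of 0.42 (adjusted p = 0.0950) that passed with an intensity trend and among genes above the median level. Its probe sets differed, since 1 of 5 was called higher on its own, with 2989, 4034 and 4198 on endosteal arrays against 1894, 1988 and 1909 on central arrays, and another pointed down at -0.26.

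The differences between paralogues were compared directly after their values had been seen. The change of Tln2 exceeded that of Tln1 by 2.59, that of Fermt2 exceeded that of Fermt3 by 2.78, that of Parva exceeded that of Parvg by 2.71 and that of Parva exceeded that of Parvb by 2.26. In each of the 4 comparisons the log2 ratio on every endosteal array was above that on every central array. Tln2, Fermt2 and Parva were already called higher on these same arrays, so this separation is no further support. The exact permutation test, two-sided, gave p = 0.1 for each comparison, the smallest that 3 against 3 arrays allow, so none could pass 0.05.

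**Figure D3:**
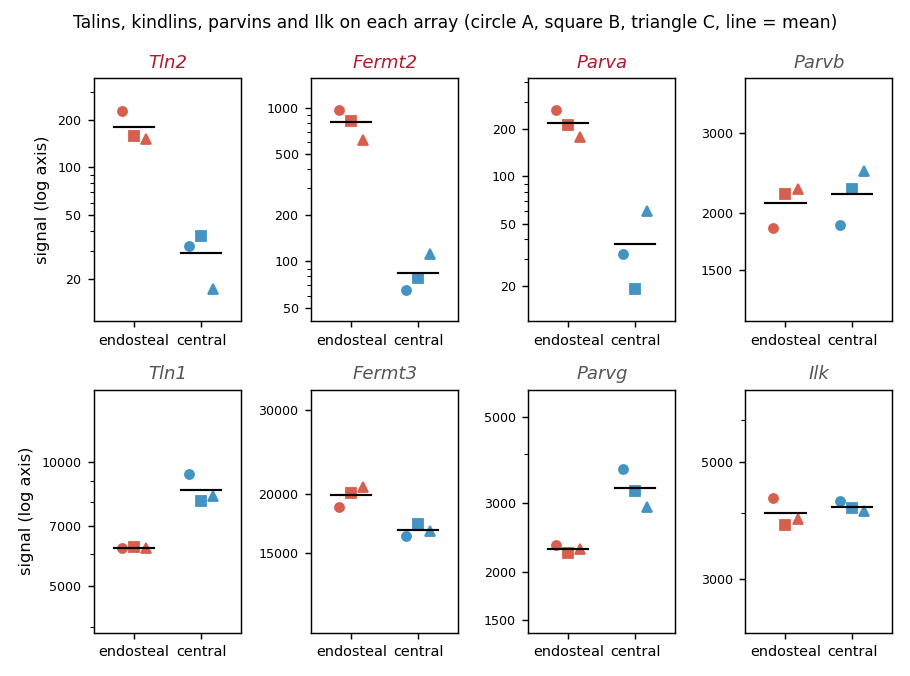
Signal of 8 activator genes on each array, on log axes, with endosteal arrays left of central arrays, the letter given by the symbol and the mean by a line. Tln2, Fermt2 and Parva are higher on all endosteal arrays, Tln1 and Parvg are lower, and Parvb and Ilk overlap.

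Fermt2, Tln2 and Parva were all highest on endosteal array A. So was the muscle sum, at 158179 on array A against 86921 and 81383 on endosteal arrays B and C. Array A also had the highest bone sum (78477, against 67080 and 63494) and the highest endothelial sum (5695, against 5287 and 5231). The osteoclast, megakaryocyte, neutrophil and B lymphocyte sums were not highest on endosteal array A. Pericyte and smooth muscle markers, of which 4 of 8 were called higher, summed to 10952, 8165 and 6733 on endosteal arrays and to 2054 to 2691 on central arrays. Myh11 of that list was below a signal of 16 on every central array, and no muscle or bone marker was below 16 on all of them. The muscle marker Mb came close, with 17.1, 6.10 and 9.51 on central arrays, as did the bone marker Phex, with 1.54, 2.29 and 17.8. The part of these cells in the activator changes was not tested.

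Itgav was called higher in endosteal RNA, as were its beta partners Itgb1, Itgb5 and Itgb8. Itgav encodes alpha v, which binds the RGD sequence in matrix proteins such as vitronectin, osteopontin and bone sialoprotein and pairs with several beta subunits. It had 3030, 2501 and 2361 on endosteal arrays, against 1128, 1031 and 1177 on central arrays. The lowest endosteal array stood clear of the highest central one, and the change was 1.22 (SE 0.15, adjusted p = 0.0106). Only 1 of its 5 probe sets was called on its own. The mean of the 5 changed by 0.78 and did not pass (adjusted p = 0.128).

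Itgb5, whose product with alpha v binds vitronectin, had 1324, 1488 and 1315 on endosteal arrays, against 631, 710 and 786.5 on central arrays, a change of 0.94 (SE 0.14, adjusted p = 0.0171). All 4 of its probe sets were called higher on their own, with changes of 0.94 to 1.26. The probe set used is of a type that may match other transcripts in part, and another without that mark read 737, 630.5 and 804 on endosteal arrays, against 258, 411 and 298 on central arrays. Itgb5 did not pass without endosteal array B, central array A or central array B (adjusted p = 0.0540 to 0.0674). Itgb8, whose product with alpha v releases active TGF-beta from its latent complex, had low signals of 67, 48.0 and 41.6 on endosteal arrays, against 18.7, 15.7 and 14.2 on central arrays. Its change of 1.07 (SE 0.18, adjusted p = 0.0220) ran from 0.53 to 1.69 over the alternatives, and the gene did not pass with an intensity trend, after quantile normalisation, or without endosteal array B or any 1 central array (adjusted p = 0.0595 to 0.0969). Itgb6, the epithelial partner, had 64.5 ± 22.6 on endosteal and 30.2 ± 10.7 on central arrays (SD, n = 3 each) and did not pass (change 0.79, adjusted p = 0.123).

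Alpha v with beta 3 is the main integrin of osteoclasts, and beta 3 with alpha IIb is the fibrinogen receptor of platelets. Itgb3 had 4187, 4551 and 4050 on endosteal arrays, against 2049, 2866 and 3233 on central arrays. The groups did not overlap, but the change of 0.67 (SE 0.20) did not pass (adjusted p = 0.0883). Itga2b, which encodes alpha IIb, had 4560, 5478 and 4964 on endosteal arrays, against 2143, 3437 and 3801 on central arrays, with no overlap and a change of 0.71 (SE 0.25, adjusted p = 0.123). Both passed with an intensity trend (adjusted p = 0.00869 for Itgb3 and 0.0183 for Itga2b) and among genes above the median level (0.0190 and 0.0325).

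Central array A was the lowest array for both, as it was for the megakaryocyte and platelet markers. Their sum was 23748 on central array A, against 40356 and 46390 on central arrays B and C, and 90142 to 105233 on endosteal arrays, with 7 of 8 markers called higher. Central array A was also the lowest array for the osteoclast, endothelial and bone sums, at 1862, 1396 and 1573. It was not the lowest for the muscle, pericyte, neutrophil or B lymphocyte sums. On central arrays B and C the osteoclast sums were 2625 and 2431, the endothelial sums 1597 and 2127 and the bone sums 1967 and 2077. Osteoclast markers, with 7 of 8 called higher, summed to 24636 to 28882 on endosteal and 1862 to 2625 on central arrays. No marker of either list was below 16 on every central array. The part of megakaryocytes or osteoclasts in these changes was not tested.

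**Figure D4:**
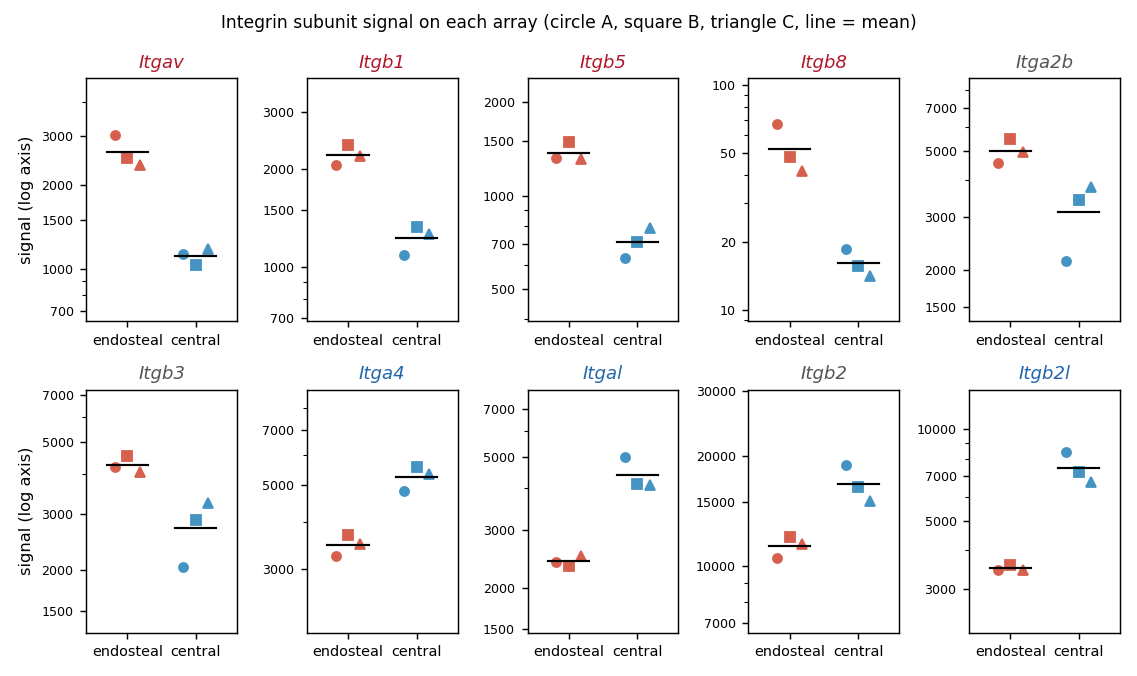
Signal of 10 integrin subunit genes on each array, on log axes, with endosteal arrays left of central arrays, the letter given by the symbol and the mean by a line. Titles are red for genes called higher, blue for genes called lower and grey for genes not called. Itgav, Itgb1, Itgb5, Itgb8, Itga2b and Itgb3 are higher on all endosteal arrays, and Itga4, Itgal, Itgb2 and Itgb2l are lower.

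Itgb1 encodes beta 1, the partner of most alpha subunits that bind collagen, laminin and fibronectin, and was higher. Its signals were 2067, 2379 and 2204 on endosteal arrays, against 1091, 1328 and 1262 on central arrays, a change of 0.85 (SE 0.14, adjusted p = 0.0210). Of its 6 probe sets, 5 had positive changes and 1 was called on its own. Their mean changed by 0.63 (adjusted p = 0.156). Leaving out endosteal array B, endosteal array C or any 1 central array ended the call (adjusted p = 0.0561 to 0.0679).

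Of 6 alpha genes whose products bind collagen or laminin, limma called 0, with 3 higher at an unadjusted p below 0.05. The collagen receptors Itga1, Itga2 and Itga10 had changes of 0.52, 0.79 and 0.80 (adjusted p = 0.272, 0.117 and 0.0911). For Itga10, a receptor of cartilage, endosteal arrays read 116, 185 and 185, against 79.6, 68.8 and 108.5 on central arrays, with no overlap. The laminin receptors Itga3, Itga6 and Itga7 had changes of 0.53, 0.56 and 1.63 (adjusted p = 0.448, 0.228 and 0.0946). Itga7, the laminin receptor of muscle fibres, had 156, 128 and 72.1 on endosteal arrays, against 58.0, 5.93 and 29.4 on central arrays. It was highest on endosteal array A, as were the muscle, bone, endothelial and pericyte sums. Its change ran from 0.95 to 2.30 over the alternatives without passing in any. Itga6, which stem cells, megakaryocytes and endothelium carry, had 3642 ± 481 on endosteal and 2529 ± 744 on central arrays (SD, n = 3 each). Itgb4, the partner of alpha 6 in epithelium, had 42.2 ± 5.62 on endosteal and 19.8 ± 20.6 on central arrays, and its change of 0.85 did not pass (adjusted p = 0.239).

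Of the fibronectin and tenascin receptors, Itga5, Itga8 and Itga9 were not called, with changes of -0.10, 0.01 and 0.31 (adjusted p = 0.756, 0.989 and 0.484). The result for Itga5, the classic fibronectin receptor, depended on the probe set. Its brightest read 134, 159 and 198 on endosteal arrays, against 150, 183 and 194.5 on central arrays. The other 3 had changes of 1.07 to 1.36, and 1 of them was called higher on its own, at 109, 83.5 and 71.6 on endosteal arrays against 28.1, 42.1 and 29.8 on central arrays. The average of all 4 rose by 0.90 (adjusted p = 0.0192).

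Of 4 leukocyte alpha genes, Itgal was called lower in endosteal RNA and the other 3 had negative changes that did not pass. Itgal encodes alpha L, which forms LFA-1 with beta 2 and binds ICAMs. It had 2398, 2331 and 2498 on endosteal arrays, against 4988, 4123 and 4110 on central arrays. The groups were far apart, with a change of -0.86 (SE 0.13, adjusted p = 0.0191). Without endosteal array A or B or any 1 central array it had adjusted p of 0.0537 to 0.0644. Its common partner Itgb2 had 10540, 12000 and 11470 on endosteal arrays, against 18900, 16440 and 15040 on central arrays. Those groups did not overlap either, and the change of -0.56 (SE 0.14) missed the threshold (adjusted p = 0.0599) while passing in 6 of 16 alternatives.

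The myeloid partners of beta 2 were not called. Itgam, the alpha M chain of Mac-1, had 2689, 2535 and 2900 on endosteal arrays, against 5130, 3867 and 3394 on central arrays (change -0.59, adjusted p = 0.104). Itgax, the alpha X chain of dendritic cells and macrophages, had 389 ± 57.7 on endosteal and 617 ± 168 on central arrays (SD, n = 3 each), with a change of -0.62 (adjusted p = 0.152). Neither passed, and in neither did the groups overlap. Among genes above the median level both passed (adjusted p = 0.0248 for Itgam and 0.0458 for Itgax), and with an intensity trend Itgam did (0.0123). Itgae, which pairs with beta 7 on mucosal T cells, had 5.95, 46.8 and 140 on endosteal arrays, against 69.7, 67.0 and 60.1 on central arrays. These values overlap, and signals this low cannot resolve a difference.

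Itgb2l, a mouse gene close to Itgb2 whose product, pactolus, is made in the neutrophil lineage, had the largest decrease of the 34 genes. It had 3455, 3599 and 3441 on endosteal arrays, against 8397, 7210 and 6680 on central arrays. That is a change of -1.08 (SE 0.14, adjusted p = 0.0116), or 0.474 times the central level on that scale. Its other 2 probe sets were below 114 on every array, and the mean of the 3 did not pass (-0.69, adjusted p = 0.263). Without central array B its adjusted p was 0.0506.

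The 250 bases before the RefSeq start of Itgb2l, the gene with the largest decrease, lie on the minus strand of GRCm38.p6 at chr16:96443615-96443864. Capitals mark the letters GAGGAA, the core of the motif of PU.1, a factor of myeloid cells, on either strand.
Itgb2l: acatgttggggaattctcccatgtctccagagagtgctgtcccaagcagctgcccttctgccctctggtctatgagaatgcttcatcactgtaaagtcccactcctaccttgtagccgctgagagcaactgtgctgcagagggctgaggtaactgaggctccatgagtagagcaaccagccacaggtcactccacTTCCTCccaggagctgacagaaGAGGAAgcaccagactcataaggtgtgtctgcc
These letters occurred in 23.3% of all windows and in 11 of the 25 members with one, 2 of 5 called higher, 1 of 2 called lower and 8 of 18 not called. The GATA letters AGATAA were in 2 of 25 (9.99% of all windows), the RUNX letters TGTGGT in 5 of 25 (14%) and the GC box letters GGGCGG in 11 of 25 (32.7%). As for the CArG box, these are counts of genes beside shares of windows, so they cannot show whether members have an excess or a lack. RefSeq's span of Itgb2l also reaches into its window.

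Of 9 neutrophil markers, 4 were called higher and 1 lower, and their sum was 548543 to 573547 on endosteal and 367310 to 404464 on central arrays. Called higher were S100a8, S100a9, Ngp and Camp, at 0.53 to 0.82, and called lower was Csf3r, at -0.95. Monocyte and macrophage markers had 3 of 9 called higher and 1 lower, with sums of 44580 to 52448 on endosteal and 39075 to 44073 on central arrays. Called higher were C1qa, C1qb and Vcam1, at 1.24 to 1.56, and called lower was Ccr2, at -0.88. The sums thus do not give the direction of every marker in these lists. No marker of either list was below 16 on every central array. The part of these cells in the beta 2 values was not tested.

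Itga4 encodes alpha 4, which as VLA-4 with beta 1 holds blood progenitors and lymphocytes to VCAM-1 and fibronectin. Its signals were 3245, 3690 and 3486 on endosteal arrays, against 4829, 5597 and 5360 on central arrays. The groups did not overlap, and the change of -0.60 (SE 0.13) passed narrowly (adjusted p = 0.0410). It did not pass after leaving out any of the 6 arrays (0.0794 to 0.134), after quantile normalisation (0.0533) or when its 5 probe sets were averaged (-0.25, adjusted p = 0.417). Itgb7, the other partner of alpha 4, had 757, 445 and 592 on endosteal arrays, against 1119, 1155 and 687 on central arrays, with overlap and a change of -0.70 (adjusted p = 0.178). B lymphocyte markers had 0 of 9 called higher and 3 lower, with sums of 7664 to 14281 on endosteal and 19080 to 29397 on central arrays. At an unadjusted p below 0.05, limma had 1 of 8 T and NK lymphocyte markers higher and 1 lower, and 0 of 7 erythroid markers higher and 2 lower, and it called 0 of either list. T and NK sums were 4426 to 5611 on endosteal and 4063 to 5213 on central arrays, and erythroid sums were 56567 to 79615 on endosteal and 81354 to 94394 on central arrays. Mast cell and basophil markers had 0 of 5 called higher and 1 lower, with sums of 4413 to 5862 on endosteal and 7034 to 7279 on central arrays. Whether lymphocyte content moved Itga4, Itgal or Itgb7 was not tested.

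Genes for ligands of these receptors were often higher in endosteal RNA. Of 29 measured ligand genes, 12 were called higher and 2 lower (41.4% and 6.9%, against 7.74% and 3.97% of all genes). Their median change was 1.17. The largest were Col1a1 and Col1a2 of type I collagen at 6.34 and 6.10, Postn, the matrix protein periostin bound by alpha v integrins, at 4.96, and Tnc, the tenascin bound by alpha 9 and alpha v, at 3.85. Tgfb1, whose latent peptide alpha v binds, and Fn1, fibronectin, were lower at -1.12 and -1.04. With the replicate block 5 of the 29 were called higher, namely Col1a1, Col1a2, Lama2, Ibsp and Postn, and 0 lower. Of the list, Col1a1, Col1a2 and Ibsp are also bone markers here, Vwf a platelet marker and Vcam1 a macrophage marker.

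Of 8 inside-out signalling genes, which set the state of integrins from inside, 0 were called higher, with 2 higher at an unadjusted p below 0.05 in limma, and 2 were called lower (25%, against 3.97% of all genes). They were Apbb1ip, which encodes RIAM, the bridge from Rap1 to talin, at -1.14 (adjusted p = 0.0229), and Sipa1, which turns Rap1 off, at -1.05 (0.0190). RIAM read 257, 242 and 292 on endosteal arrays, against 769, 530.5 and 529 on central arrays. Of 8 inactivator genes, Dab2, an endocytic adaptor that binds beta tails, was called higher at 2.07 (adjusted p = 0.00520), and Csk, the kinase that restrains Src, was called lower at -0.74 (0.0196). These are 12.5% in each direction, against 7.74% and 3.97% of all genes, but rest on 1 gene each way.

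Focal adhesion genes were called in equal numbers in both directions. Of 23 measured, 4 were called higher and 4 lower (17.4% each, against 7.74% and 3.97% of all genes). Higher were Tgfb1i1, the mesenchymal paxillin relative Hic-5, at 1.16, the tensin gene Tns3 at 1.03, Dock1 at 0.87 and Rsu1, which binds PINCH, at 0.71. Lower were Vasp at -0.95, Zyx, zyxin, at -0.76, Pxn, paxillin, at -0.75 and Rac2, the blood cell Rac, at -0.67. Of 9 membrane proteins that associate with integrins, 4 were called higher and 0 lower (44.4% and 0%). These were Cav1, caveolin-1, at 1.77, Itgb1bp2, the striated muscle protein melusin, at 1.17, and the tetraspanin genes Cd9 and Cd81 at 0.85 and 0.79. With the replicate block limma called 0 of the 48 genes of the inside-out, inactivator, focal adhesion and membrane lists. At an unadjusted p below 0.05 in that fit, 11 were higher and 12 lower, with no share of all genes to set beside them. Endothelial markers stood higher on the same arrays, 8 of 10 called, with sums of 5231 to 5695 on endosteal and 1396 to 2127 on central arrays, and their part in Cav1 was not tested.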

How the data were processed

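The file holds the intensity of 45101 probe sets on 6 arrays, as deposited by the authors on a linear scale, from biotin-labelled cRNA per the labels' protocols. The summary software is not given in the sources used here. Each array had the same mean after trimming 2% at each end (500), so each appears scaled by 1 factor. Precision is limited by having 3 arrays a region. Gene names came from GEO's platform annotation, with 34741 of 34945 single-gene probe sets found by gene ID in RefSeq (GRCm38.p6). Promoters are RefSeq's. Control probe sets were left out. A gene was represented by its single-gene probe set with the highest mean of log2(signal + 16). The region comparison used limma 3.58.1 under R 4.3.3 (lmFit, eBayes, region as the only term, Benjamini-Hochberg over 18193 genes), after a test on simulated data.

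Every member is named. The rule gave values on each array for called members, their subunit partners and members with called probe sets of opposite direction, and named up to 4 called genes a direction in other lists. Per-array values of further members, and ligand genes beyond 4, were added after values were seen. Members and lists were chosen with earlier results of these data known. Residuals of same-letter arrays correlated at 0.05, 0.04 and 0.01 over all genes for A, B and C. Restricted to the brighter genes, above the median, the values were 0.25, 0.12 and 0.08. Not every letter was over 0.1 on either measure, and the letter as a block is an alternative. Other alternatives were pseudocounts, quantile normalisation, centring, a level filter, the mean of probe sets or each probe set alone, an intensity trend, single arrays left out and, chosen after seeing the data, the probe set with the highest mean linear signal.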

Additional observations from a re-analysis of the deposited data

How the results depend on the processing

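Against 7 members called higher and 3 lower, the fixed replicate block gave 0 and 0, and leaving out 1 array gave 3 to 6 higher and 0 to 2 lower. Members called lower were 6 with pseudocount 64, 6 after centring, 7 with an intensity trend (9 higher), 8 among the 21 members above the median level (7 higher) and 1 with the mean of all probe sets (6 higher). Of all 18193 genes, 1832 were higher and 1106 lower with pseudocount 64, 927 and 1778 after centring, 2184 and 1690 with the trend, 1111 and 497 with the mean of probe sets and 85 and 0 with the fixed block, against 1409 and 723. The level filter tested 9096 genes and called 1663 higher (18.3%) and 1716 lower (18.9%). Leaving out 1 array gave 502 to 890 higher and 89 to 297 lower genes. Of 82 probe sets tested singly, 15 were called higher and 2 lower, against 4.63% and 2.08% of all probe sets. Pseudocount 1, quantile normalisation, the random block and the choice by linear signal gave 6 or 7 higher and 3 or 4 lower members, against 6.19%, 6.26%, 9.17% and 7.92% of all genes higher and 3.09%, 3.8%, 5.17% and 4.02% lower, in that order. Itga5 reversed to 0.90 with the mean of its probe sets, while Itga8 and Fermt3, called in none, changed sign after centring. The cause was not tested. Signals near 16 hold little information, which limits Itgb8, Itgb4, Itgb6, Itgae and the central values of Tln2 and Parva.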
